A study of Mus musculus with 6 samples.

Results

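The genes described here are 10 receptors, adaptors and enzymes of Fc receptor and ITAM signalling, chosen by symbol from the 54532 genes of a deposited count table, in which all 10 were found on 1 row each. They were measured by RNA-seq in 6 libraries of mesenchymal stromal cells (MSCs, adherent bone-forming precursors) grown from mouse alveolar bone, the part of the jaw that carries the teeth. There were 3 libraries from mice lacking Ccrl2 (Ccrl2-KO, below KO), an atypical receptor for the chemoattractant chemerin, and 3 from wild-type mice (WT). Per the labels, cells of both genotypes had been put under TNFα-induced inflammation and osteogenic induction. The column names of the table carry the word Ctrl, which no label explains, so the table does not settle whether these cells had received TNFα, and that condition is taken from the labels. The sources used here give neither the strain, age and sex of the mice nor how the KO allele was made. The labels call the replicates biological but do not tie each to a separate mouse, so p-values may cover only the spread between cultures. The question of the comparison is which transcripts differ between KO and WT cells in this setting.

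Fc receptors bind the constant part of antibodies. The activating IgG receptors of the mouse carry no signalling motif of their own and work through a small membrane adaptor, Fcer1g (FcRγ), whose tail holds an ITAM, a paired tyrosine motif. Tyrobp (DAP12) is a similar ITAM adaptor that serves other receptors, such as Trem2. Once Src family kinases phosphorylate it, the ITAM recruits the kinase Syk, which in turn activates Btk and phospholipase Cγ2 (Plcg2) and so calcium signalling. Fcgr2b, the inhibitory IgG receptor, carries an ITIM instead and recruits phosphatases that oppose this chain. In bone, ITAM adaptors are known as co-stimulators of osteoclasts, the bone-resorbing cells of the macrophage lineage, and most of these genes are read in the field as genes of macrophages and other leukocytes, while Syk is also found outside the blood lineage.

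Total counts lay between 16114974 and 18616433 per library, so that the upper limit on an unseen transcript, 3 counts, corresponded to 0.161 to 0.186 CPM (a library's counts scaled to a total of 1e+06). Such floors cover counting error only. Ccrl2 itself had 0 counts in each KO library and 4, 3 and 0 counts in WT replicates 1 to 3, which gives little check of the labels. KO replicate 2 was unlike the rest. It lay at 66.6 on the first principal component (52.1% of the variance), against 3.40 and 7.76 for KO replicates 1 and 3 and -31.2 to -15.9 for WT, and it had 16428 genes with a count against 18928 to 19372 elsewhere. Stromal markers were abundant in every library, the summed CPM of 11 of them, led by Col1a1 and Col1a2, being 38600 to 63300 in KO and 56400 to 67300 in WT.

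The IgG receptors Fcgr2b and Fcgr3 and the macrophage receptor Trem2 were lower in KO cultures, while Syk was nearly level between the genotypes. Of the 10 genes, 8 had enough counts to be tested. Fcgr2b, Fcgr3 and Trem2 fell in KO by edgeR's quasi-likelihood test, at an adjusted p (Benjamini-Hochberg, 13705 genes) under 0.05, and none rose. Without KO replicate 2 the called genes were 5, Fcer1g and Tyrobp being added. Over all tested genes 2.67% were called, 2.31% lower and 0.365% higher in KO. Fcer1g, Tyrobp, Plcg2, Btk and Syk did not pass, and Fcgr1 and Fcgr4 were too low to be tested. The median log2 fold change of the 8 was -1.72, against 0.02 over all tested genes. In 6 of the 8, and in Fcgr4, each KO library lay below each WT library in CPM, an order that 11.0% of all tested genes showed. Fcgr2b and Btk passed the filter on low counts through their WT libraries alone, which favoured a negative value. Tyrobp passed with KO replicate 2 as its only KO library above the limit. The inclusion of these genes was thus not independent of their difference, and the counts given are a description of the group. Without Fcgr2b and Btk, 2 of the other 6 tested genes were called, with a median log2 fold change of -1.41.

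Fcgr2b, the inhibitory receptor, had the most negative log2 fold change of the 8 tested genes. It had 1, 1 and 4 counts in KO replicates 1, 2 and 3, against 70, 50 and 71 counts in WT replicates 1, 2 and 3. In CPM these were 0.0605, 0.0616 and 0.215 in KO and 4.05, 3.10 and 3.89 in WT, so the groups were far apart and 2 of the KO libraries held a single count each. Fcgr2b fell by 4.93 on the log2 scale (-4.93 ± 0.53, SE), which is 30.4-fold lower in KO, with an adjusted p of 0.000652 in edgeR. Only 2 of the 13705 tested genes had a more negative log2 fold change. Fcgr2b was among the tested genes through its WT libraries alone, so this rank is a description. Summed over libraries, 6 counts in KO stood against 191 in WT, and the ratio of WT to KO had an exact 95% interval of 14.3 to 87.4, which covers counting error only. With single libraries left out the log2 fold change of Fcgr2b ranged from -5.77 to -4.66 and it was called each time (adjusted p up to 0.00809).

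Fcgr3, the low-affinity activating IgG receptor, was the most abundant of the IgG receptors. Its counts were 40, 45 and 53 in KO and 165, 138 and 175 in WT, or 2.68 ± 0.229 CPM in KO and 9.24 ± 0.583 CPM in WT (SD, n = 3 each). Libraries of 1 genotype lay close together, and the lowest WT library was well above the highest KO library. Fcgr3 fell by 1.80 on the log2 scale (-1.80 ± 0.21, SE), 3.49-fold lower in KO, with an adjusted p of 0.00122 (edgeR), and was called with each library left out (adjusted p up to 0.0124).

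The other activating receptors were near the limit of detection. Fcgr4, a receptor for IgG2a and IgG2b, had 0 counts in each KO library and 7, 12 and 7 counts in WT. With 3 counts allowed to the KO libraries in all and the 26 WT counts taken as exact, Fcgr4 was at least 8.62-fold lower in KO, and the exact 95% interval of the ratio of WT to KO counts, which covers the counting error of both sums, began at 6.53. It was too low for the test, and without the filter on low counts its adjusted p was 0.0347 (edgeR). That fit called 883 of 24034 genes, against 366 of 13705 with the filter, so this value is not on a par with those of the tested genes. Fcgr1, the high-affinity IgG receptor, had 0, 6 and 2 counts in KO and 10, 4 and 7 counts in WT. The groups overlapped, since KO replicate 2 had more Fcgr1 counts than WT replicate 2, and its adjusted p without the filter was 0.678.

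Trem2, a lipid-binding receptor of macrophages and microglia that signals through Tyrobp, had 32, 40 and 18 counts in KO against 114, 130 and 158 in WT. It stood at 1.79 ± 0.760 CPM in KO and 7.78 ± 1.06 CPM in WT (SD, n = 3 each), without overlap, KO replicate 3 being the lowest library. Trem2 fell by 2.14 on the log2 scale (-2.14 ± 0.33, SE), 4.42-fold lower in KO, with an adjusted p of 0.00598 (edgeR), and was called with each library left out (adjusted p up to 0.0404).

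**Figure D1:**
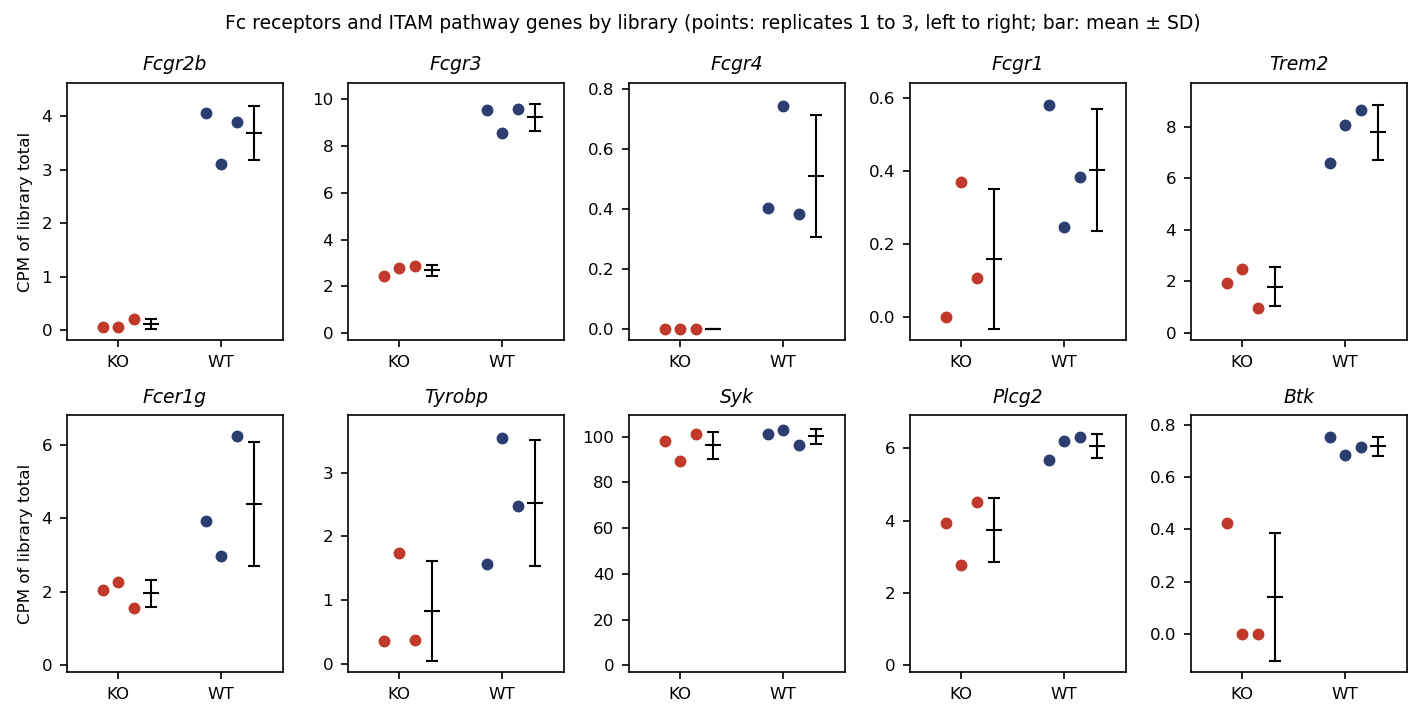
CPM of the library total for the 10 genes, 1 panel each with its own axis, in 3 KO (red) and 3 WT (blue) libraries; points are replicates 1 to 3 from left to right and the black bar is the mean ± SD. Fcgr2b was between 0.0605 and 0.215 CPM in KO and between 3.10 and 4.05 CPM in WT, Fcgr4 had no count in KO, and Syk lay between 89.6 and 103 CPM in all 6 libraries.

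Reads of the IgG receptors can be shared, because Fcgr2b and Fcgr3 have nearly identical stretches. In GENCODE M21 transcripts, 166 of the 1733 windows of 50 bases in Fcgr3 (9.58%) and of the 5685 in Fcgr2b (2.92%) occurred in the other gene, and neither Fcgr1 nor Fcgr4 shared a window with another gene. The sources used here do not say how the authors counted such reads. Fcgr2b also has 155 exonic bases (2.68%) in common with Gm38204 on the opposite strand. The libraries are not stated to keep strand, so reads there cannot be told apart.

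Because Fcgr2b opposes the activating receptors, its counts were also set against those of Fcgr1, Fcgr3 and Fcgr4 within each library, a ratio that no scaling affects. Fcgr2b counts made up 3.70%, 2.91% and 8.11% of the activating counts in KO replicates 1, 2 and 3, against 38.6%, 32.7% and 37.7% in WT replicates 1, 2 and 3 (0.5 added to each sum). The log2 ratio averaged -4.49 ± 0.77 in KO and -1.46 ± 0.13 in WT (SD, n = 3 each), a difference of -3.03, or 8.17-fold lower in KO. The groups did not overlap, and the two-sided exact permutation test gave p = 0.10, the smallest value that 3 against 3 libraries allow. It rests on 6 Fcgr2b counts in KO, of which 4 were in KO replicate 3.

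Both adaptors had lower values in KO, but neither passed the test. Fcer1g, the FcRγ chain, had 34, 37 and 29 counts in KO and 68, 48 and 114 counts in WT. Its KO libraries were all lower than its WT libraries, which differed among themselves from 2.98 to 6.25 CPM. The log2 fold change of Fcer1g was -1.18 ± 0.34 (SE), with an adjusted p of 0.129 in edgeR and 0.0485 in DESeq2. Without KO replicate 2 it was -1.31, with an adjusted p of 0.0436 (edgeR).

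Tyrobp, or DAP12, had 6, 28 and 7 counts in KO and 27, 57 and 45 counts in WT. KO replicate 2, the library that stood apart, had more Tyrobp counts than WT replicate 1, so the groups overlapped, also in CPM. The log2 fold change was -1.64 ± 0.62 (SE), with an adjusted p of 0.258 (edgeR). Without KO replicate 2 it was -2.77, and Tyrobp was then called lower (adjusted p = 0.00398, edgeR). This 1 library thus decided the call, and why it differs was not tested.

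Among the cytoplasmic enzymes the order was different. Syk, the kinase that docks on phosphorylated ITAMs, had 1622, 1454 and 1878 counts in KO and 1748, 1660 and 1758 counts in WT. It stood at 96.2 ± 5.87 CPM in KO and 100 ± 3.44 CPM in WT (SD, n = 3 each), with overlapping groups. Its log2 fold change was -0.08 ± 0.10 (SE), the interval of 2 SE on either side running from -0.28 to 0.12, and its adjusted p was 0.725 (edgeR). Syk supplied 87.8% to 90.5% of the summed counts of the 10 genes in KO and 71.4% to 75.3% in WT. The other 9 genes together held 185 to 202 counts per KO library and 550 to 705 counts per WT library.

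Plcg2, phospholipase Cγ2, which releases calcium-mobilising messengers downstream of Syk, had 65, 45 and 84 counts in KO and 98, 100 and 115 counts in WT. All KO libraries were below all WT libraries, but by a smaller margin than for Fcgr2b, Fcgr3 and Trem2. The log2 fold change was -0.71 ± 0.25 (SE), with an adjusted p of 0.215 (edgeR). Btk, the Tec family kinase mutated in people with X-linked agammaglobulinaemia, had 7, 0 and 0 counts in KO and 13, 11 and 13 counts in WT. Its log2 fold change of -2.34 ± 1.0 (SE) was imprecise and did not pass (adjusted p = 0.315, edgeR), and it ranged from -6.66 to -1.74 with single libraries left out. Neither Plcg2, Btk nor Syk was called with any library left out.

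**Figure D2:**
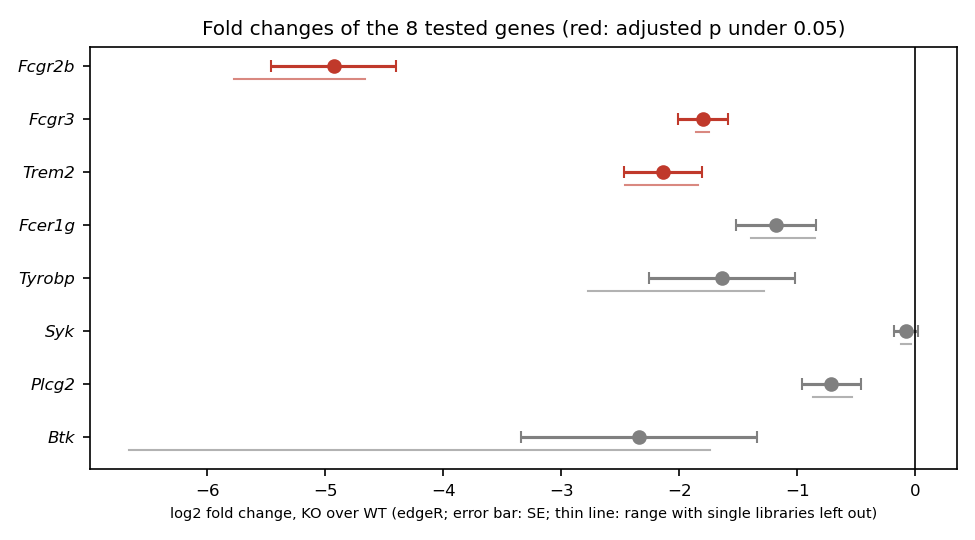
Log2 fold change of KO over WT (edgeR) for the 8 tested genes, with the SE as error bar and, as a thin line below each, the range over fits with single libraries left out; red marks an adjusted p under 0.05. Fcgr2b at -4.93 lies apart from Trem2 at -2.14 and Fcgr3 at -1.80, and Syk at -0.08 lies next to 0.

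Per kilobase of the gene length given in the deposited table, the levels (CPM per kb) placed Syk first in both genotypes, at 10.3 ± 0.627 in KO and 10.7 ± 0.368 in WT (SD, n = 3 each). In WT it was followed by Fcgr3 at 5.32 ± 0.336, Fcer1g at 5.02 ± 1.92 and Tyrobp at 3.78 ± 1.48, whose spreads overlapped. Next in WT came Trem2 at 1.57 ± 0.214 and Plcg2 at 1.41 ± 0.0787, which overlapped too, then Fcgr2b at 0.636 ± 0.0879 and Fcgr4 at 0.407 ± 0.161, whose 1 SD intervals overlapped, and lastly Btk at 0.227 ± 0.0112 and Fcgr1 at 0.156 ± 0.0642. In KO the adaptor Fcer1g, at 2.25 ± 0.423 CPM per kb, came before Fcgr3 at 1.54 ± 0.132, Tyrobp at 1.23 ± 1.17 and Plcg2 at 0.870 ± 0.206. Trem2 in KO stood at 0.362 ± 0.154, and Fcgr2b, at 0.0194 ± 0.0153, was below Fcgr1 at 0.0614 ± 0.0735 and Btk at 0.0448 ± 0.0776, within their spreads. The sources used here do not say how gene length was defined. It was 4946 bases for Trem2 and 5790 for Fcgr2b, against 874 for Fcer1g and 667 for Tyrobp. Such lengths may exceed those of the transcripts present, so the order between genes holds for this divisor only.

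Of the 10 genes, 4 lie on chromosome 1 within 276 kb (GRCm38 coordinates, which all 10 genes share with GENCODE M21). They are Fcgr2b (ENSMUSG00000026656, 170958617 to 170976547, minus strand), Fcgr4 (ENSMUSG00000059089, 171018920 to 171029761, plus strand), Fcgr3 (ENSMUSG00000059498, 171051174 to 171064935, minus strand) and Fcer1g (ENSMUSG00000058715, 171229572 to 171234365, minus strand). Trem2 is on chromosome 17 (ENSMUSG00000023992, 48346401 to 48354147, plus strand), Syk on chromosome 13, Tyrobp on chromosome 7, Plcg2 on chromosome 8, Fcgr1 on chromosome 3 and Btk on the X chromosome. Of 22 other tested genes within 500 kb of the chromosome 1 group, 2 were called lower and 0 higher (edgeR). The share over all tested genes was 2.31% lower and 0.365% higher. The median log2 fold change of the 22 was -0.08. The 2 were Arhgap30, a GTPase-activating protein (-2.41 ± 0.40, SE), and Ly9, a lymphocyte receptor of the SLAM family (-3.05 ± 0.62), named here after their values were seen. Arhgap30 was lost without WT replicates 1 or 2 (adjusted p up to 0.0740, edgeR) and Ly9 without any library but KO replicate 2 (up to 0.201). Tomm40l, next to Fcer1g, had a log2 fold change of -0.21.

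Promoters of the IgG receptors, Trem2 and Syk are shown so that the sequence of the called genes Fcgr2b, Fcgr3 and Trem2 can be set beside that of members that were not called. RefSeq (GRCm38.p6) gave promoters for 9 of the 10 genes, all but Tyrobp. The 250 bases before each RefSeq start were searched on both strands for GAGGAA, whose other strand reads TTCCTC, the core of sites bound by PU.1, the myeloid transcription factor that Spi1 encodes. It was present for 5 of the 9 genes (Fcgr1, Fcgr3, Fcgr4, Trem2 and Syk), and for 25.9% of all 27025 genes in the RefSeq table. Below are the 150 bases before the start, 5′ to 3′ on the gene's strand, with matches in capitals. RefSeq starts can differ from the gene ends of the deposited table. The windows cover chr3:96293970-96294119 for Fcgr1 (minus strand), chr1:171059404-171059553 for the first of 2 Fcgr3 starts (minus strand), chr17:48346251-48346400 for Trem2 (plus strand), chr1:171018776-171018925 for Fcgr4 (plus strand), chr1:170976072-170976221 for Fcgr2b (minus strand) and chr13:52583287-52583436 for the first of 2 Syk starts (plus strand).
Fcgr1: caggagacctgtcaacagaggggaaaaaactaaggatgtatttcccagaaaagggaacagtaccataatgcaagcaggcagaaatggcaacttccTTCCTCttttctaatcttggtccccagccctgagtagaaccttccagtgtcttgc
Fcgr3: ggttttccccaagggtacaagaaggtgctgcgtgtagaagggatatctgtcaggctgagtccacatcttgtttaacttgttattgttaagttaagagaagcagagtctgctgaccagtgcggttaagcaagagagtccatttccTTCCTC
Trem2: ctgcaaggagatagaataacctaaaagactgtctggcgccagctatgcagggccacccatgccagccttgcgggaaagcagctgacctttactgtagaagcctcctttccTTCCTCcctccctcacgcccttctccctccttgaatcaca
Fcgr4: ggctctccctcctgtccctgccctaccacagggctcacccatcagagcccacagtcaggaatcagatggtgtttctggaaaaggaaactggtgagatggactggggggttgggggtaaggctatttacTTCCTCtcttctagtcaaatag
Fcgr2b: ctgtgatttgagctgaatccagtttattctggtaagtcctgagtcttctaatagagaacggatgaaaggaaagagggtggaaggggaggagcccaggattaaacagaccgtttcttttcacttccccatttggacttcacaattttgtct
Syk: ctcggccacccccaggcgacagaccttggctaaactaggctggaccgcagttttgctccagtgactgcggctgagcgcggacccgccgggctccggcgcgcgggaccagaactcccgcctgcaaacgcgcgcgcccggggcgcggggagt
In Fcgr1, Fcgr3 and Trem2 the match sat in the longer run TTCCTTCCTC, a string picked after the 3 promoters had been read, which (on either strand, and containing the shorter motif) occurred in the same 250 bases for 0.466% of all genes. The printed windows of Fcgr2b and of the first Syk start held no GAGGAA on either strand, and the second Syk start had 1 match. The window of the first Syk start was 72.7% G or C and that of the second 47.3%, against 43.3% to 54.7% for the other 5 printed. A match is a string of letters, not a measured binding site. Spi1 itself had 16, 17 and 10 counts in KO and 57, 55 and 84 counts in WT (log2 fold change -2.17 ± 0.38, SE), called lower in edgeR but not without KO replicate 3 or any WT library (adjusted p up to 0.0811).

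Macrophage markers moved with the Fc receptor genes. Of 19 markers, 18 were tested and 15 were called lower and 0 higher in KO, with a median log2 fold change of -2.10. Without Itgam, which passed the filter through WT libraries alone, 14 of 17 were called and the median was -2.02. For comparison, 2.31% of all tested genes were called lower and 0.365% higher in KO. The summed level of the 19 macrophage markers was 132 to 134 CPM in KO and 431 to 488 CPM in WT. Lyz2, lysozyme (-1.84 ± 0.16, SE), and Mrc1, the mannose receptor (-2.61 ± 0.15), had the highest counts summed over all 6 libraries and were called in each fit that left out a library. Mertk, a receptor for dying cells, came next in that sum and was not called (-0.25 ± 0.15). In KO alone Mertk, at 22.2 CPM, stood above Mrc1, at 8.16 CPM. Markers of other leukocytes were at low summed levels, with several defining ones at 0 and 3 genes tested. The summed level was at most 0.616 CPM in KO and 0.384 CPM in WT for 7 neutrophil markers, with S100a9, Ly6g and Mpo at 0 in all libraries. It was at most 0.215 CPM in KO and 0.232 CPM in WT for 5 mast cell markers, with Mcpt4 and Tpsb2 at 0. For 5 B cell markers it was 0 in every KO library and at most 0.124 CPM in WT, with Ms4a1, Pax5 and Cd79b at 0. For T and NK cells it was at most 1.94 CPM in KO and 1.04 CPM in WT, with Cd3e and Ncr1 at 0 and Trac at 31, 7 and 36 counts in KO and 15, 6 and 18 counts in WT. Dendritic cell markers summed to 1.69 to 1.88 CPM in KO and 1.74 to 3.23 CPM in WT, with Flt3 and Cd209a at 0 and Zbtb46 at 19, 5 and 24 counts in KO and 19, 43 and 48 counts in WT, and platelet markers to 2.26 to 3.69 CPM in KO and 2.49 to 3.78 CPM in WT, with Gp9 at 0 and Itga2b at 58, 38 and 40 counts in KO and 30, 34 and 36 counts in WT. Zbtb46, Trac and Itga2b were tested and not called. Of 9 osteoclast markers, 5 were tested and none was called. They were led by Ctsk, cathepsin K (0.33 ± 0.10, SE), which stromal cells can express, while Calcr and Dcstamp were at 0. Of 11 stromal markers, all tested, 1 was called. This was Thy1 (-0.81 ± 0.10, SE), lower in KO and called in each fit that left out a library. In bulk RNA, fewer cells of a type and less RNA per cell cannot be told apart. The part of cell composition in the lower Fc receptor counts was not tested.

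Set against the summed counts of the 19 macrophage markers in the same library, Fcgr3, Trem2 and both adaptors overlapped between the genotypes. Fcgr3 amounted to 1.85%, 2.09% and 2.15% of the marker counts in KO and 2.22%, 1.85% and 1.97% in WT. The groups overlapped, with a difference of 0.01 in mean log2 ratio. Trem2 amounted to 1.48%, 1.86% and 0.745% in KO and 1.54%, 1.74% and 1.78% in WT, KO replicate 3 being low. Tyrobp, at 0.297%, 1.31% and 0.302% in KO and 0.369%, 0.767% and 0.511% in WT, overlapped as well. Fcer1g, at 1.57%, 1.73% and 1.19% in KO and 0.920%, 0.647% and 1.29% in WT, also overlapped, with a higher mean in KO. The marker sum includes Mertk, which was not called. Mertk supplied 1151 of the 6847 marker counts in KO and 1344 of the 23853 in WT, a larger share in KO, which lowers the KO ratios. Single genes were not set against a sum without Mertk, so the overlap of Fcer1g is stated for this sum only.

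Fcgr2b and Fcgr4 were lower in KO on this scale too, without overlap. Fcgr2b counts were 0.0685%, 0.0690% and 0.181% of the marker counts in KO and 0.947%, 0.673% and 0.803% in WT, a difference of -3.07 in mean log2 ratio. For Fcgr4, with no count in KO, the difference was -2.35 and rests on the 0.5 added. Btk (-1.58) and Fcgr1 (-0.02) overlapped between the genotypes. Syk and Plcg2 went the other way. These ratios of single genes were not tested. Syk amounted to 66.9% to 75.6% of the marker counts in KO and 19.7% to 23.5% in WT, and Plcg2 to 2.09% to 3.40% in KO and 1.30% to 1.34% in WT. For all 10 genes summed, the log2 ratio to the markers was -0.31 ± 0.07 in KO and -1.77 ± 0.09 in WT (SD, n = 3 each). The difference of 1.46 gave p = 0.10 in the two-sided exact permutation test, the smallest possible. Syk dominated that sum, and without Syk (an alternative added once the values were known) the difference was 0.16 (p = 0.10, exact permutation test), the KO libraries lying at 7.95% to 9.32% of the marker counts and the WT libraries at 7.34% to 7.92%.

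**Figure D3:**
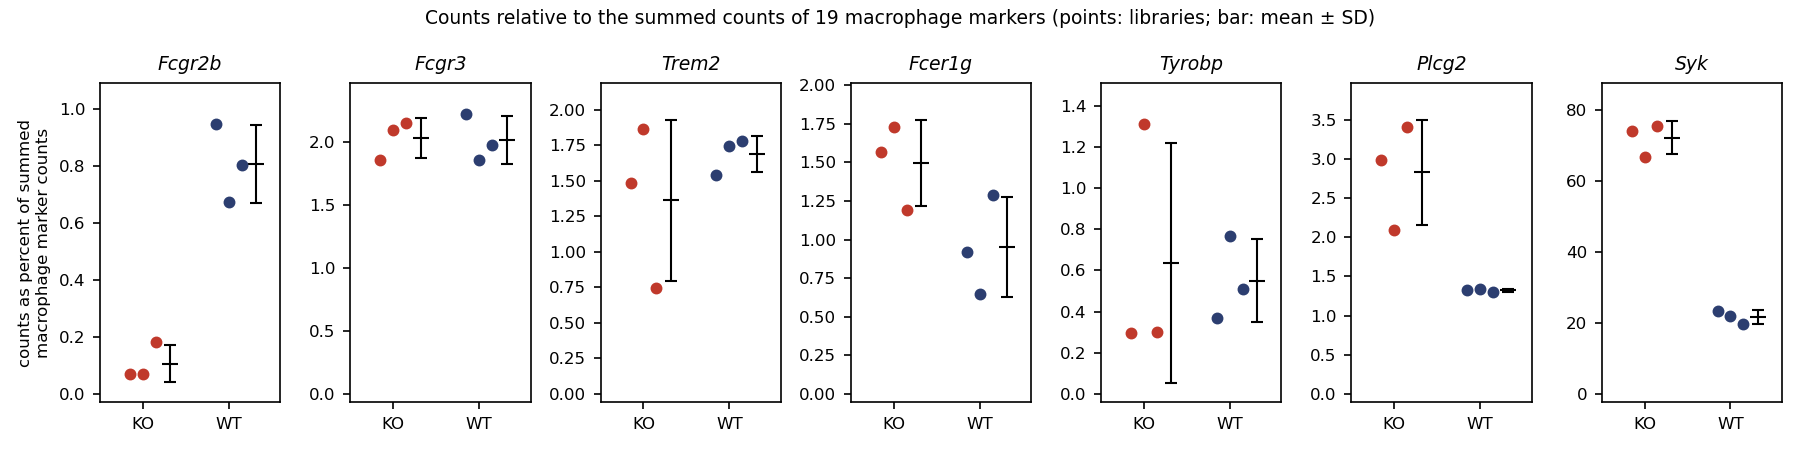
Counts of 7 of the genes as percent of the summed counts of 19 macrophage markers in the same library (0.5 added to each), for 3 KO (red) and 3 WT (blue) libraries, with mean ± SD in black. Fcgr3 lies between 1.85% and 2.22% in all 6 libraries, Fcgr2b lies lower in KO (0.0685% to 0.181%) than in WT (0.673% to 0.947%), and Plcg2 and Syk lie higher in KO.

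The rest of the pathway was read from 6 lists of genes. From a list of 18 receptors, most of which pair with Fcer1g or Tyrobp, 7 were tested. All 7 had negative values and their median log2 fold change was -2.02. Of these, 3 (Clec4n, Cd300lb and Cd300ld) passed the filter on low counts through WT libraries alone, which favoured a negative value, and the median of the other 4 was -1.09. Only Clec4d, a C-type lectin for fungal and mycobacterial glycolipids that works through Fcer1g, was called. Clec4d had 33, 23 and 6 counts in KO and 80, 83 and 113 counts in WT (-2.13 ± 0.48, SE, adjusted p = 0.0470 in edgeR), and was lost without KO replicate 3 or any WT library (adjusted p up to 0.171). Oscar, the collagen receptor of osteoclasts, had 24, 6 and 15 counts in KO and 16, 46 and 12 in WT, with overlapping groups. Trem3, Sirpb1a, Siglech, Gp6, Lilra5, Klrk1, Ncr1 and Cd200r3 had no count in any library.

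Of the 6 pathway lists, that of ITIM receptors and phosphatases held the most called genes. Among its 14 tested genes, 7 (50%) were called lower and 0 higher in KO (edgeR), with a median log2 fold change of -1.90. Over all tested genes 2.31% were called lower and 0.365% higher, and among the macrophage markers 15 of 18 were called lower. The difference between lists was not tested. Lair1, Cd72 and Dok2 passed the filter through WT libraries alone, and among the other 11 there were 6 called, with a median of -1.67. Lilrb4a, an ITIM receptor of myeloid cells, had 17, 24 and 23 counts in KO and 75, 124 and 115 counts in WT (-2.31 ± 0.32, SE). Cd33, a sialic acid-binding lectin, had 19, 10 and 22 counts in KO and 94, 62 and 104 counts in WT (-2.35 ± 0.35). Both were called with each library left out (adjusted p up to 0.0270 for Lilrb4a and 0.0379 for Cd33). Pirb, an inhibitory receptor for MHC class I, had 15, 32 and 31 counts in KO and 81, 128 and 127 counts in WT (-2.12 ± 0.34), and was lost without WT replicate 2 (adjusted p = 0.0562). Lilrb4a and Pirb have close relatives, so reads may have been shared. Inpp5d, the phosphatase SHIP1 that Fcgr2b recruits, had 46, 21 and 44 counts in KO and 129, 104 and 115 counts in WT. Its log2 fold change was -1.67 ± 0.30 (SE), with an adjusted p of 0.0150 in edgeR, and the call was lost without KO replicate 3 or any WT library (adjusted p up to 0.106). The other called genes were Ptpn6, Sirpa and Dok2, each lost without any WT library and without 1 or more KO libraries (adjusted p up to 0.154, 0.225 and 0.230 for Ptpn6, Sirpa and Dok2). The count of 7 became 4 without KO replicate 3, 3, 2 and 3 without WT replicates 1, 2 and 3, and 9 without KO replicate 2. Ptpn11, the widely expressed phosphatase SHP2, was not called, with a log2 fold change of -0.21.

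Downstream of Syk, of 22 tested relays 3 (13.6%) were called lower and 0 higher, against 2.31% lower and 0.365% higher over all tested genes, and the median log2 fold change was -0.29. Vav2, a broadly expressed exchange factor for small GTPases, had 750, 581 and 898 counts in KO and 1134, 1121 and 1219 counts in WT (-0.66 ± 0.13, SE, adjusted p = 0.0222 in edgeR). Vav1, its counterpart in blood cells, had 10, 10 and 13 counts in KO and 60, 39 and 37 counts in WT (-2.05 ± 0.42, adjusted p = 0.0274). Pik3ap1, an adaptor that links receptors to PI3-kinase, had 10, 0 and 4 counts in KO and 29, 65 and 42 counts in WT (-3.28 ± 0.75, adjusted p = 0.0491). Vav2 and Pik3ap1 were lost without KO replicate 3 or any WT library, and Vav1 without any library but KO replicate 2 (adjusted p up to 0.151, 0.291 and 0.216 for Vav2, Pik3ap1 and Vav1). The number of relays called was 0 without KO replicate 3 or any WT library and 5 without KO replicate 2. Plcg1, the widely expressed relative of Plcg2, had a log2 fold change of -0.27 ± 0.11 and was not called.

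Of 5 tested Src family kinases, which act upstream, none was called in edgeR, and the median log2 fold change was 0.06. Src, Fyn and Lyn each had at least 351 counts per library, with log2 fold changes of -0.11, 0.06 and 0.22. Of 13 Fc receptor relatives, 3 were tested and none was called. Fcgrt, the neonatal Fc receptor that recycles IgG, had 2420, 1727 and 2132 counts in KO and 2386, 2175 and 2450 counts in WT (-0.17 ± 0.13, SE). Fcrls, an Fc receptor-like gene of microglia and some macrophages, had 2, 0 and 7 counts in KO and 41, 27 and 15 counts in WT (-3.21 ± 0.81, adjusted p = 0.0754 in edgeR), and passed the filter through WT libraries alone. The IgE receptor chains Fcer1a and Ms4a2 had no count in any library. Of 7 other transmembrane adaptors none could be tested. Hcst (DAP10), which lies beside Tyrobp in the genome, had 3, 10 and 4 counts in KO and 2, 2 and 0 counts in WT, and the other 6, of T and B cells, had at most 2 counts in a library.

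**Figure D4:**
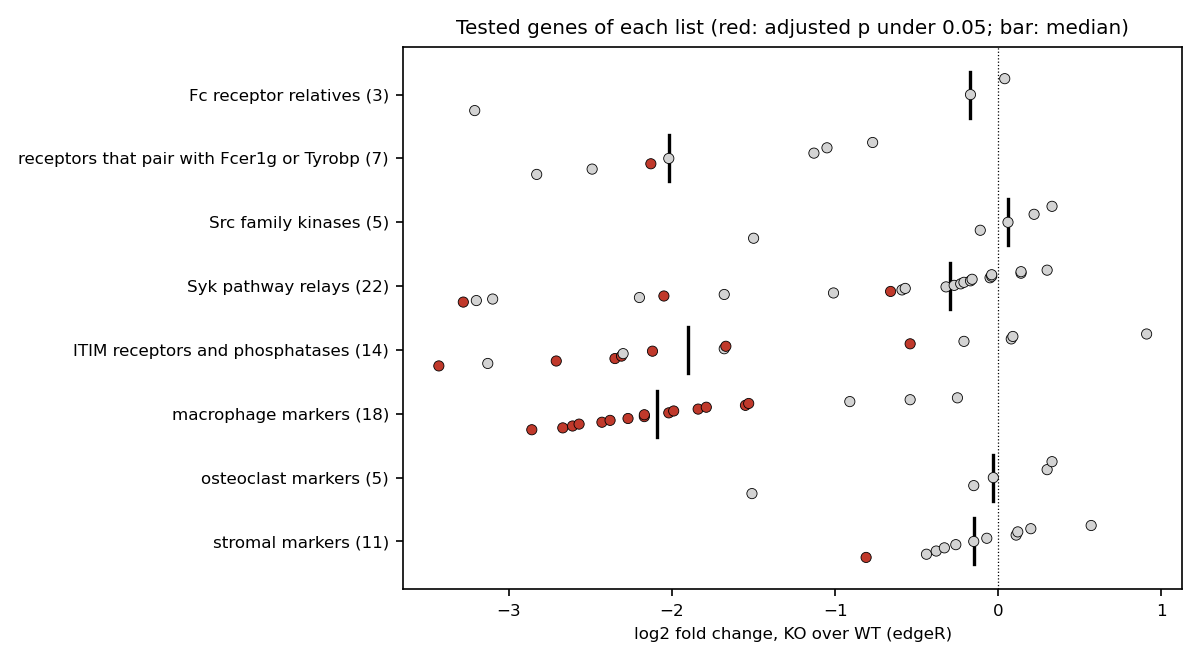
Log2 fold change of KO over WT (edgeR) for the tested genes of 5 pathway lists and of the macrophage, osteoclast and stromal markers, 1 point per gene, red where the adjusted p was under 0.05, with the median as a bar and the number tested in parentheses. The medians lie at -2.02 for receptors that pair with the adaptors, -1.90 for ITIM receptors and phosphatases and -2.10 for macrophage markers, against 0.06 for Src family kinases and -0.29 for Syk pathway relays.

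The genes whose profile over the 6 libraries was most like the median profile of the 8 tested genes were sought by the root-mean-square difference of log2 CPM centred on each gene's mean. Among the nearest 5 were Cp (0.15), Msr1 (0.15) and Gjb5 (0.17), the number being that difference. Msr1 is a macrophage scavenger receptor, Cp is the copper oxidase ceruloplasmin, and Gjb5 is a connexin. Cp, for example, stood at 6.69 CPM in KO and 21.4 CPM in WT. Since the median profile is itself lower in KO, so were the genes chosen for their likeness to it, and this is a description. Of the 8 themselves Fcgr3 was the closest to their median profile (0.25) and Fcgr2b the farthest (1.33).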

How the data were processed

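The deposited table held raw whole-number counts per gene, made by the authors, with gene length as a value of another kind. Per the labels' protocols, libraries of total RNA were made with an NEBNext Ultra kit. Of tools, HISAT2, SAMtools and StringTie appear in the submitters' processing notes, with no version or role, and of builds mm9. Which program counted the reads is not stated there. GENCODE M21 (GRCm38) holds 54409 of the identifiers, 98.3% of them with equal start and end, so positions are given as GRCm38. Column names matched sample titles apart from the word Ctrl. No library repeated another (chi-square per gene 4.37 or more within groups).

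Counts were tested in edgeR 4.0.16 (R 4.3.3) by the robust quasi-likelihood test on genotype alone, with TMM scaling (factors 0.982 to 1.01) and filterByExpr (minimum count 10, total 15), with Benjamini-Hochberg adjustment over 13705 genes and a threshold of 0.05. An SE is the size of the log2 fold change over the root of its F statistic. CPM values use library totals. Ratios were compared by exact permutation in scipy 1.17.1. The fit was tested on simulated data. Alternatives were library totals, RLE factors, other filters, DESeq2 1.42.0, limma-voom (limma 3.58.1), no robust moderation, a replicate block and single libraries left out.

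The members and lists were chosen with earlier results of these data known. Named genes are the members, the up to 4 called genes of smallest p per pathway list, the most abundant markers and those at 0, and the 5 nearest profiles. Others are given as list members. Some genes that this rule names are not reported here.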

Additional observations from a re-analysis of the deposited data

How the results depend on the processing

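Fcgr2b, Fcgr3 and Trem2 were called lower under all 8 other settings and with each of the 6 libraries left out, and no log2 fold change of a tested member reversed its sign. The count of called members was 6 without the filter on low counts (with Fcer1g, Tyrobp and Fcgr4) and ranged from 3 to 5 with single libraries left out, 5 being the value without KO replicate 2. Over all genes, 883 were called without the filter (258 higher, 625 lower, so 29.2% higher against 13.7% of the 366 called), 656 with DESeq2, and 147 to 610 with single libraries left out. In the 6 pathway lists together 11 genes were called. The count was 22 without the filter, 18 with DESeq2, 7 with the replicate number as a block, and 2 to 18 with single libraries left out, so single libraries decided most list calls. The cause was not tested. The block left 331 genes and 3 members called. Deviations of same-numbered libraries from their group means correlated at 0.137, -0.105 and -0.192. With 3 libraries per group, and KO replicate 2 standing apart, these values cannot settle whether same-numbered libraries were prepared together. The within-library ratios kept their direction under each alternative tried. Depth limits Fcgr1, Fcgr4 and Btk, with at most 13 counts in a library.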
